A study of Mus musculus with 7 samples.

Results

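The genes described here make, sense, move and break down cholesterol. They were taken by name, 32 of the 19614 gene names in the deposited count tables, and all 32 were present in each of the 7 libraries. By role they were 18 enzymes of the synthesis pathway (Acat2, Hmgcs1, Mvk, Pmvk, Mvd, Idi1, Fdps, Fdft1, Sqle, Lss, Cyp51, Tm7sf2, Msmo1, Nsdhl, Hsd17b7, Ebp, Sc5d and Dhcr7), 6 sensors and regulators (Srebf1, Srebf2, Scap, Insig1, Insig2 and Nr1h2), 7 genes of transport, efflux and uptake (Stard4, Abca1, Abcg1, Apoe, Lrp1, Npc1 and Npc2), and 1 turnover enzyme (Cyp46a1).

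The brain makes its own cholesterol, because lipoproteins of the blood do not cross the blood-brain barrier. The enzymes are switched on together by SREBP transcription factors, which SCAP escorts out of the endoplasmic reticulum when sterol is low and INSIG proteins hold back when sterol is high. Astrocytes are known to load cholesterol onto apolipoprotein E through ABC transporters, other cells take it up through receptors such as LRP1 and release it from lysosomes through NPC1 and NPC2, oligodendrocytes build it into myelin, and neurons dispose of it by hydroxylation with CYP46A1.

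Single-cell 3′ libraries had been made from dissociated cortex of mice at postnatal day 30, strain B6129SF1/J, kept in 12 h of light and 12 h of dark. Every mouse carried Opn4-Cre/+, a Cre recombinase under the control of the melanopsin gene of the intrinsically photosensitive retinal ganglion cells (ipRGCs). CTRL mice were Brn3b-+/+ and kept these cells. DTA mice were Brn3b-zDTA/+, carrying a Cre-dependent diphtheria toxin A allele at the Brn3b gene. These alleles direct the loss to ipRGCs that express Brn3b, so it need not include every ipRGC. The lesion lay in the retina and not in the cortex. Ventromedial prefrontal cortex (PFC) gave 2 CTRL and 3 DTA libraries, and motor cortex (MC) gave 1 CTRL and 1 DTA library. The labels do not say how many mice stood behind a library, so p-values measure only the spread between libraries.

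The libraries held 6180059 to 30972905 unique molecular identifiers (UMIs, 1 per captured RNA molecule) and 32985 cells in all, the number the study states. After likely doublets were removed, 31869 cells were clustered without the sterol genes and without the related lipid genes, and 27335 fell into 8 classes named from marker lists. Cell class names below mean clusters that resemble that cell type by these markers. The libraries differed in depth, with a median of 11446.5 to 15835 UMIs per excitatory neuron in PFC CTRL replicate 1, PFC DTA replicate 2 and MC DTA and 3198 to 5416 in the other 4. PFC DTA replicate 3 stood apart, with 39.1% of its cells in clusters without a name (mostly 1 cluster led by haemoglobin genes) against 1.46% to 7.22% elsewhere. Neither Opn4 nor Brn3b (Pou4f2) had a row in any library, so these genes gave no check of the genotype labels. Any pair of libraries shared 7 to 92 cell barcodes, at most 1.50% of the smaller library.

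Promoter sequence is shown first, because 16 or more of the 18 synthesis enzymes were called in 1 direction in 4 of the 6 cell class contrasts below. The transport genes went the same way in some of these contrasts and not in others. RefSeq promoters (GRCm38.p6, 250 bases before to 50 after the start) were matched for 26 of the 32 genes. The letters CCAAT, the box bound by NF-Y, a factor that works beside SREBP, were searched on both strands. They occurred in 14 of 18 promoters of synthesis enzymes (77.8%) and in 37.4% of all 32851 promoters, and at least 2 copies occurred in 50% and 11.7%. These 18 promoters belong to 15 enzymes, as Fdps, Fdft1 and Sqle had none matched. Counted by gene, 14 of 15 enzymes held the letters (93.3%), beside 41.1% of all genes. Among 6 promoters of transport genes 1 held the letters, as did 5 of 11 promoters of sensors and regulators. The sterol response letters TCACNCCAC occurred in the Hmgcs1 promoter alone among the matched genes, against 1.24% of all promoters. The DR4 repeat of liver X receptors (2 copies of AGGTCA with 4 bases between them) occurred in none of the matched genes. A match is a description of the letters, not of binding.

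The 250 bases before the start are given 5′ to 3′ on the gene's strand for 3 enzymes and for Apoe. They stand for the promoters with several CCAAT boxes and for a transport gene with none. Capitals mark CCAAT or its reverse complement ATTGG and, in Hmgcs1, also the sterol response letters. Positions are chr13:119690101-119690350 (plus strand) for Hmgcs1, chr5:114444019-114444268 (plus strand) for Mvk, chr8:64733579-64733828 (minus strand) for Msmo1 and chr7:19699189-19699438 (minus strand) for Apoe.
Hmgcs1: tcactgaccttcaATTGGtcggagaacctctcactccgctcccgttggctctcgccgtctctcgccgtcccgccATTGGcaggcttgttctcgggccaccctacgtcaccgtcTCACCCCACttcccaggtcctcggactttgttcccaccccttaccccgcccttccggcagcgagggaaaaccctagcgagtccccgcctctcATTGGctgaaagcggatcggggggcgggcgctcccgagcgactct
Mvk: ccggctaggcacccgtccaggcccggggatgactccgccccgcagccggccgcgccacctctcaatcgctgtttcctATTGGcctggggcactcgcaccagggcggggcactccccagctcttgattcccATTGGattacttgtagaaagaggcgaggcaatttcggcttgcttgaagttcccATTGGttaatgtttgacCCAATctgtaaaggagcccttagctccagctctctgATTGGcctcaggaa
Msmo1: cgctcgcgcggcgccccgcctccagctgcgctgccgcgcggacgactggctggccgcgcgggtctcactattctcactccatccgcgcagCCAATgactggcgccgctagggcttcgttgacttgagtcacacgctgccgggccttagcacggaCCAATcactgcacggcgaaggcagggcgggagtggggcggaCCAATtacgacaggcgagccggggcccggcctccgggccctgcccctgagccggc
Apoe: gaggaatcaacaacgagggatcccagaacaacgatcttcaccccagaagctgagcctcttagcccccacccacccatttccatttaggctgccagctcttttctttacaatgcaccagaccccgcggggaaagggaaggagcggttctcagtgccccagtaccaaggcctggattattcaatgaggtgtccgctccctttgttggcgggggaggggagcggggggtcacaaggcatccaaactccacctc

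**Figure D1:**
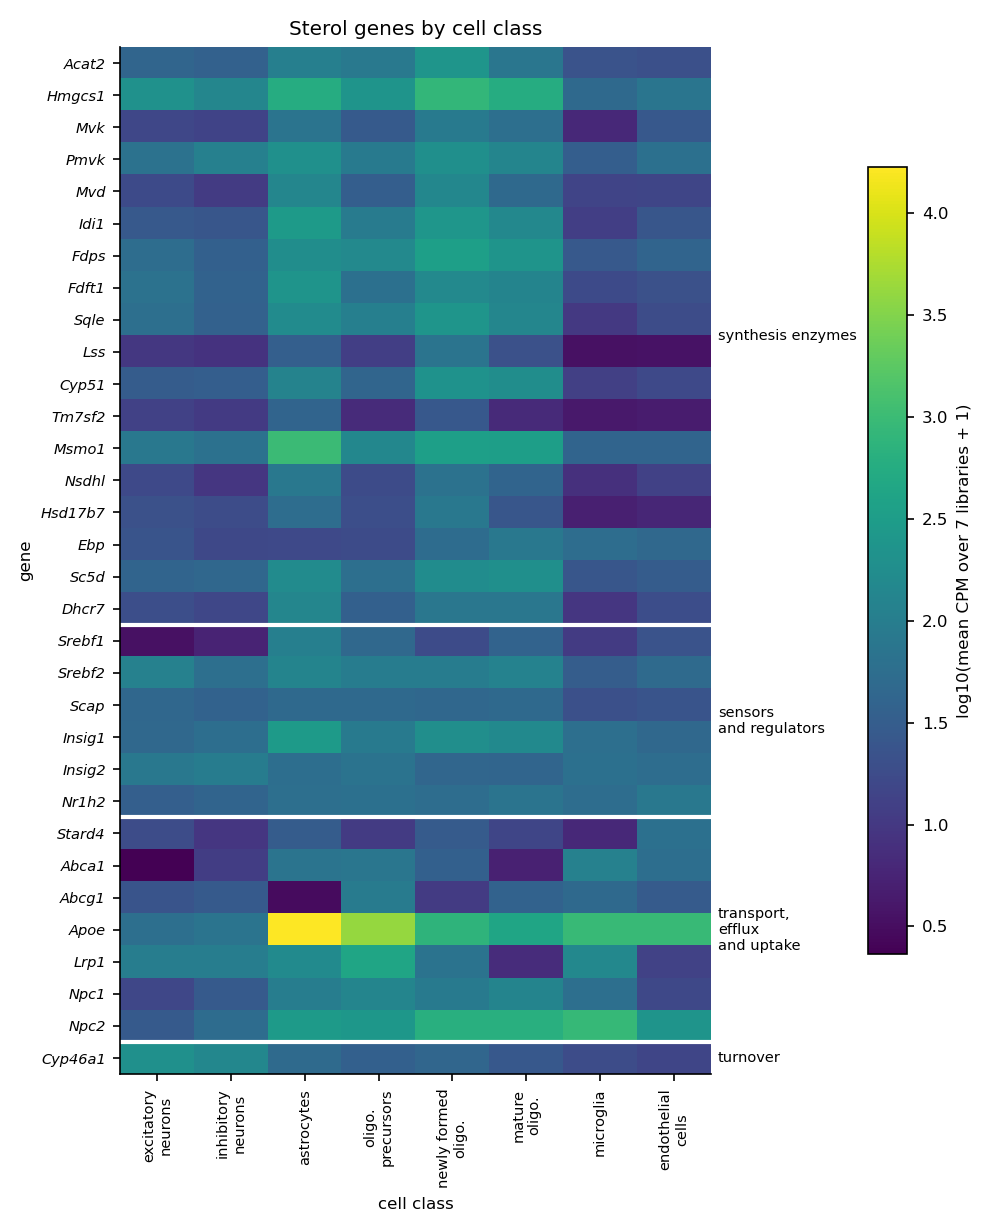
Mean level of each sterol gene (rows, grouped by role) in 8 cell classes (columns), as log10 of the mean CPM (counts per 1000000 UMIs of a class) over 7 libraries plus 1. Rows of synthesis enzymes are brightest in astrocytes and in newly formed or mature oligodendrocytes, the Apoe row in astrocytes and precursors, and the Cyp46a1 row in neurons. Colours are to be compared along a row.

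The synthesis enzymes were higher in astrocytes and oligodendrocytes than in neurons. Levels are CPM, counts per 1000000 of the UMIs summed over a class in a library. The 18 enzymes together made up 3044, 3249 and 5018 CPM of the astrocyte RNA (lowest, median and highest of 7 libraries) and 688, 820 and 860 CPM in excitatory neurons. In mature oligodendrocytes the sum was 2023, 2571 and 2758 CPM. Every library of both glial classes lay above every neuronal library. Relative to excitatory neurons of the same library, astrocytes stood 3.84 to 5.86 times higher, mature oligodendrocytes 2.44 to 4.01 times and oligodendrocyte precursors 1.04 to 2.01 times. Inhibitory neurons stood at 0.722 to 1.06 times, endothelial cells at 0.463 to 0.679 times and microglia at 0.318 to 0.518 times. Of the 18 enzymes, 9 had their highest mean level in newly formed oligodendrocytes, 7 in astrocytes and 2 (Ebp and Sc5d) in mature oligodendrocytes. None peaked in a neuronal class.

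**Figure D2:**
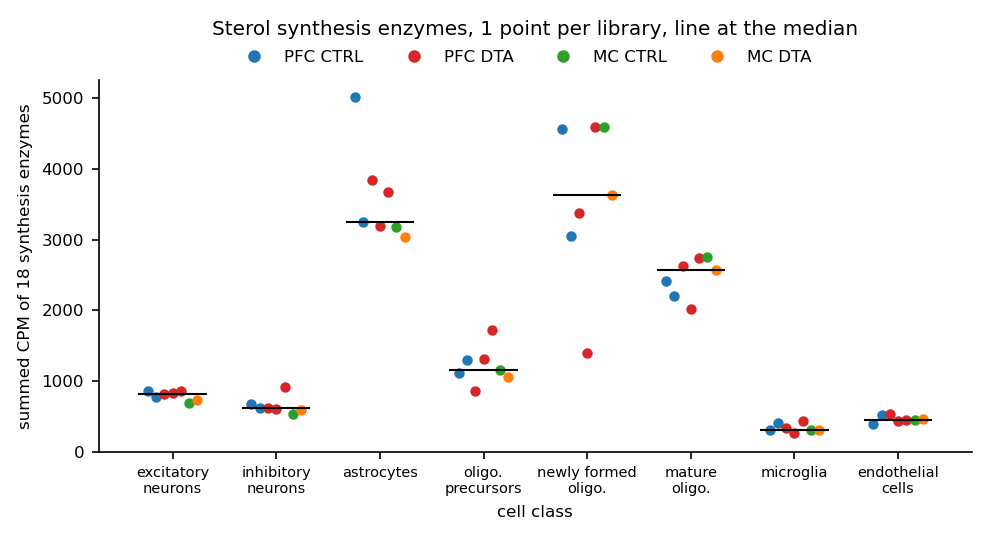
Summed level of the 18 synthesis enzymes in each library (points, coloured by area and genotype) and cell class, in CPM, with a line at the median. Astrocytes (3044 to 5018) and mature oligodendrocytes (2023 to 2758) lie above excitatory neurons (688 to 860) in every library, and newly formed oligodendrocytes spread from 1395 to 4600.

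Against excitatory neurons, 27 of the 32 genes were higher in astrocytes and 3 were lower. That is 30 of 32, beside 76% of all 11983 genes tested (37.7% higher, 38.3% lower), at an adjusted p under 0.05 (edgeR's quasi-likelihood test, adjusted by Benjamini-Hochberg over all genes). The median log2 fold change was 1.93 over the 32 genes and -0.01 over all genes. Of the enzymes, 17 of 18 were higher and none was lower, with a median log2 fold change of 2.05. The other enzyme was Ebp, a sterol isomerase, at -0.37 ± 0.18 (SE) on the log2 scale (adjusted p = 0.056, edgeR).

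Msmo1, which oxidises the methyl groups that lanosterol carries, was measured at 777, 967 and 1257 CPM in astrocytes and at 68, 84.9 and 91.9 CPM in excitatory neurons. The classes were far apart, and its astrocyte level was also above every library of every other class. Its log2 fold change was 3.80 ± 0.17 (SE, adjusted p = 2.3e-20, edgeR). Idi1, the isomerase that makes the building block of isoprenoids, followed at 3.62 ± 0.17, and Mvd, which decarboxylates mevalonate diphosphate, at 3.30 ± 0.16 on the log2 scale. Dhcr7, which reduces the last double bond on the way to cholesterol, was higher by 3.05 ± 0.11. Hmgcs1, at the entry of the pathway, was measured at 423, 566 and 808 CPM in astrocytes and at 188, 199 and 234 CPM in excitatory neurons. The classes did not overlap, yet the difference was among the smaller ones, at 1.62 ± 0.19 on the log2 scale. Sqle, squalene epoxidase, was of like size at 1.67 ± 0.15. Astrocytes came mostly from 1 sub-cluster (cluster 6) in 4 libraries (MC DTA, PFC CTRL replicate 1 and both PFC DTA replicates 2 and 3), and mostly from another (cluster 5) in the other 3 libraries. No library removed from the fit left fewer than 30 of the 32 genes called in this comparison.

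The sensors were split. Srebf1, which encodes the SREBP form best known for fatty acid synthesis, was measured at 67.4, 109 and 146 CPM in astrocytes and at 1.82, 2.25 and 3.73 CPM in excitatory neurons. Srebf2, the form best known for cholesterol synthesis, lay at 94.2, 127 and 164 CPM in astrocytes and at 91.7, 116 and 134 CPM in excitatory neurons. The first was close to 0 in these neurons, whereas the second overlapped between the classes. The log2 fold changes were 5.60 ± 0.17 for Srebf1 (adjusted p = 1.6e-31, edgeR) and 0.34 ± 0.11 for Srebf2 (adjusted p = 0.0036, edgeR). Insig1, itself a target of SREBP, was higher in astrocytes by 2.82 ± 0.16, and Nr1h2, liver X receptor beta, by 1.01 ± 0.11. Insig2, the paralog of Insig1, was lower by 0.32 (log2 fold change -0.32 ± 0.11). Scap, the escort, was not called (0.26 ± 0.12, adjusted p = 0.054, edgeR).

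Transport genes each had their own place. Apoe, the main lipoprotein of brain, was measured at 11096, 16243 and 23478 CPM in astrocytes, at 3055, 4374 and 5178 CPM in oligodendrocyte precursors, and at 20.8, 47.8 and 125 CPM in excitatory neurons. No 2 of these classes overlapped. Astrocytes were higher than excitatory neurons by 8.51 ± 0.40 on the log2 scale (adjusted p = 7.4e-19, edgeR). The neuronal level was 0.14% to 0.576% of the astrocyte level in the same library, while the astrocyte marker genes reached 2.92% to 5.05%. In inhibitory neurons the shares were 0.164% to 0.893% for Apoe and 1.07% to 1.79% for the markers. Carried-over RNA was not tested as a source of either. In precursors the Apoe level was 21.1% to 27.9% of that in astrocytes, and the marker genes reached 4.65% to 6.62%.

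Abca1, which pumps cholesterol onto apolipoproteins, was highest in microglia at 94.6, 115 and 135 CPM. Astrocytes had 38.1, 73 and 92.1 CPM and excitatory neurons 0.536, 1.24 and 2.28 CPM. Microglia lay above every other class in all 7 libraries, and the log2 fold change of astrocytes over excitatory neurons was 5.82 ± 0.18 (adjusted p = 8.8e-32, edgeR). Abcg1, its partner in efflux to lipoprotein particles, ran the other way. It was measured at 0.94, 1.94 and 3.72 CPM in astrocytes, 18.8, 22.4 and 24.4 CPM in excitatory neurons and 59, 87.6 and 121 CPM in oligodendrocyte precursors. Astrocytes were the lowest of the 8 classes for Abcg1, and differed from excitatory neurons by -3.34 ± 0.25 on the log2 scale (adjusted p = 1.0e-16, edgeR).

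Lrp1, an uptake receptor for Apoe particles, peaked in oligodendrocyte precursors at 345, 407 and 538 CPM, against 143, 156 and 196 CPM in astrocytes and 1.42, 4.44 and 12.3 CPM in mature oligodendrocytes. The precursor libraries lay above every library of every other class. Npc2, the soluble lysosomal cholesterol carrier, peaked in microglia at 801, 864 and 1086 CPM, against 20.7, 25.7 and 37.9 CPM in excitatory neurons. It was higher than in excitatory neurons by 3.57 ± 0.13 in astrocytes and by 4.97 ± 0.14 in mature oligodendrocytes on the log2 scale. Npc1, its membrane partner, was higher by 2.99 ± 0.13 in astrocytes. Stard4, a cytosolic sterol carrier, had its highest level in endothelial cells, at 49.8, 55.9 and 79.4 CPM. The next highest class for Stard4 was astrocytes, at 18.6, 28 and 55.1 CPM, which overlapped.

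Cyp46a1, the cholesterol hydroxylase of neurons, was measured at 158, 195 and 242 CPM in excitatory neurons and at 107, 151 and 179 CPM in inhibitory neurons. Astrocytes had 36.7, 43.2 and 66.6 CPM and mature oligodendrocytes 16.9, 20.6 and 40.7 CPM. Both neuronal classes lay above all libraries of the 6 other classes. The log2 difference from excitatory neurons was -1.83 ± 0.13 in astrocytes (adjusted p = 7.2e-18, edgeR) and -2.50 ± 0.14 in mature oligodendrocytes (adjusted p = 9.4e-22, edgeR). The astrocyte level of Cyp46a1 was 18.4% to 31.1% of the neuronal level, and the excitatory marker genes reached 1.74% to 13.4%.

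**Figure D3:**
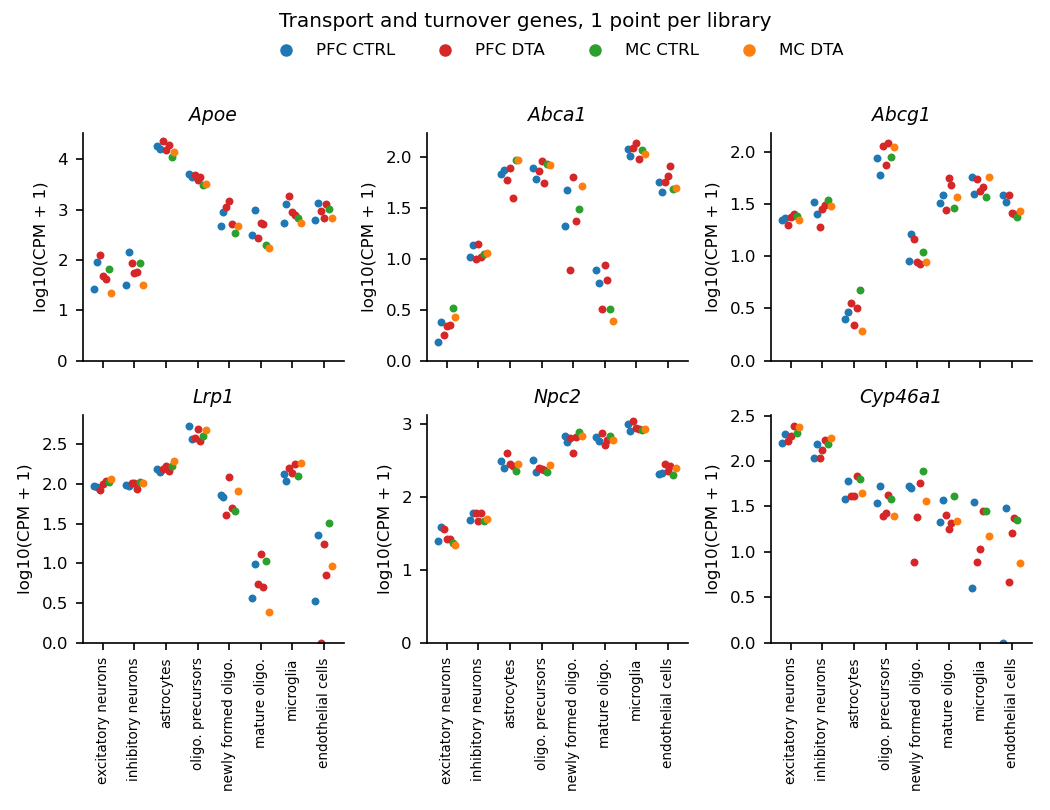
Levels of 6 transport and turnover genes in each library (points, coloured by area and genotype) and cell class, as log10 of CPM plus 1. Apoe is highest in astrocytes, Abca1 and Npc2 in microglia, Abcg1 and Lrp1 in oligodendrocyte precursors, and Cyp46a1 in neurons.

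Inhibitory neurons differed from excitatory neurons in 20 of the 32 genes, 7 higher and 13 lower, beside 52.7% of all genes (25.5% higher, 27.2% lower). The lower genes were mostly enzymes. Of 18 enzymes 9 were lower and 1 was higher, with a median log2 fold change of -0.38 beside -0.01 over all genes. Fdft1, squalene synthase, was measured at 28.1, 35.3 and 49.5 CPM in inhibitory and 56, 67.8 and 75.7 CPM in excitatory neurons. The classes did not overlap, and the log2 difference was -0.86 ± 0.12 (adjusted p = 2.3e-08, edgeR). Nsdhl, a sterol dehydrogenase, was lower by the same amount, at -0.86 ± 0.15, with Sqle at -0.80 ± 0.16, Fdps (farnesyl diphosphate synthase) at -0.78 ± 0.23 and Hmgcs1 at -0.66 ± 0.19 on the log2 scale. Pmvk, phosphomevalonate kinase, was the enzyme that was higher, at 0.67 ± 0.12 (adjusted p = 2.5e-06, edgeR).

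Srebf2 was lower in inhibitory neurons too. It was measured at 47.6, 61 and 64 CPM, against 91.7, 116 and 134 CPM in excitatory neurons, with no overlap. Its log2 difference was -1.04 ± 0.11 (adjusted p = 9.4e-12, edgeR), and Scap was lower as well (-0.37 ± 0.11). Abca1 was higher in inhibitory neurons by 2.86 ± 0.22 and Npc1 by 0.95 ± 0.14, while Stard4 was lower (-1.25 ± 0.19). Cyp46a1 was modestly lower, at -0.54 ± 0.11 on the log2 scale (adjusted p = 5e-05, edgeR), and Apoe gave 0.26 ± 0.32 (adjusted p = 0.52, edgeR).

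Mature oligodendrocytes were higher than excitatory neurons in 27 of the 32 genes and lower in 4, beside 79% of all genes called (36.5% higher, 42.5% lower). Of the enzymes 17 of 18 were higher, and the median over the 18 was 1.98 on the log2 scale, beside -0.09 over all genes. Cyp51, lanosterol demethylase, was measured at 140, 196 and 211 CPM in mature oligodendrocytes and at 20.7, 30.4 and 38.3 CPM in excitatory neurons. The classes were well apart, and the log2 fold change was 3.09 ± 0.18 (adjusted p = 1.6e-17, edgeR). Idi1 followed at 2.94 ± 0.17, Sc5d, a sterol desaturase, at 2.75 ± 0.14, and Dhcr7 at 2.53 ± 0.11. Tm7sf2, a sterol reductase, was the enzyme that was lower (-0.60 ± 0.23, adjusted p = 0.017, edgeR), and its sign turned with finer clustering. Srebf1 was higher by 4.31 ± 0.19 and Npc1 by 3.64 ± 0.13. Lrp1 was lower, at -3.47 ± 0.18 on the log2 scale (adjusted p = 3.2e-23, edgeR).

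Oligodendrocyte precursors, the dividing cells from which oligodendrocytes arise, were lower than astrocytes in 23 of the 32 genes and higher in 2, beside 47.7% of all genes called (21.9% higher, 25.8% lower). The median log2 fold change was -1.65 over the 32 genes. Msmo1 in precursors was measured at 88, 123 and 239 CPM, far under its astrocyte level given above, a log2 difference of -3.17 ± 0.19 (adjusted p = 3.9e-16, edgeR). Tm7sf2 (-3.00 ± 0.33), Nsdhl (-2.66 ± 0.21) and Mvd (-2.39 ± 0.23) followed, as did Insig1 (-2.07 ± 0.19) and Apoe (-2.41 ± 0.30). The genes that were higher in precursors were Abcg1 (5.13 ± 0.26, adjusted p = 1.3e-22, edgeR) and Lrp1 (1.01 ± 0.12, adjusted p = 1.1e-09, edgeR).

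Along the oligodendrocyte line, all 18 enzymes were higher in newly formed oligodendrocytes than in precursors. Over the 32 genes 22 were higher and 5 lower, beside 41.6% of all genes called (20.4% higher, 21.2% lower), and the enzymes' median log2 fold change was 1.82. Lss, lanosterol synthase, was higher by 2.86 ± 0.33, Cyp51 by 2.56 ± 0.27 and Hmgcs1 by 2.09 ± 0.22 (adjusted p = 1.5e-09, edgeR). Hmgcs1 turned sign here with finer clusters (-0.27) and with the sterol genes kept for clustering (-0.42). Abcg1 (-2.84 ± 0.25), Lrp1 (-2.38 ± 0.16) and Apoe (-2.32 ± 0.32) were lower. From newly formed to mature cells 10 of the 32 genes were higher and 8 lower, beside 39.3% of all genes (20.7% higher, 18.6% lower). This split changed with scaling, to 4 higher and 17 lower with library totals and to 9 and 11 with relative log expression size factors. Of all 11983 genes, 1284 were higher and 4195 lower with library totals. With relative log expression size factors 2306 were higher and 2405 lower. Under library totals the median of all genes itself moved to -0.39 in this comparison.

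These stage contrasts turned on 116 cells. Newly formed oligodendrocytes were 539 cells, 33 to 174 per library, and clustering at a finer resolution, again without the sterol genes, left 423 of them as newly formed and joined 116 to the mature class. The 423 are called early and the 116 late. The finer cluster that took the 116 held 348 cells, and its other cells are counted as mature here. Late cells are thus a part of that finer cluster, cut off by the coarser clustering. In the 7 libraries, in the order PFC CTRL replicates 1 and 2, PFC DTA replicates 1 to 3, MC CTRL and MC DTA, the late cells numbered 10, 33, 15, 4, 12, 34 and 8. The clusters that cut off the late cells were named from the same marker lists, so the marker sums describe the cut and are no separate support. In late cells the markers of newly formed cells summed to 2411, 3278 and 4802 CPM, and those of mature cells to 13168, 15500 and 18160 CPM. Values of single markers are not given here, so a sum can rest on few of them. In early cells the mature markers summed to 187, 540 and 687 CPM, and in mature cells the newly formed markers to 247, 285 and 364 CPM. With the finer clusters 26 genes were higher and 3 lower in mature than in newly formed cells, and 2 were higher and 4 lower in newly formed cells than in precursors. The share of all genes called with these clusters is not given here. These counts therefore cannot be told apart from a general shift.

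Late cells, as cut here, had the highest synthesis level of these stages. The 18 enzymes summed to 856, 1154 and 1728 CPM in precursors, 876, 1096 and 1641 CPM in early cells, 4249, 6706 and 7538 CPM in late cells and 2023, 2571 and 2758 CPM in mature cells. Precursors and early cells overlapped, and late cells lay above every library of the other stages. Within libraries the late level was 4.12 to 7.24 times the early level and 2.10 to 3.12 times the mature level. The stages were split after the values were seen, so no test was made. Each of the 18 enzymes was higher in late than in early cells in 7 of 7 libraries, beside 5.88% of all genes tested. Of the 18, 16 were also higher than in mature cells in all 7 libraries, beside 8.27% of all genes. Ebp and Sc5d were the other 2.

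Hmgcs1 was measured at 104, 134 and 252 CPM in early cells, 955, 1629 and 2096 CPM in late cells and 435, 610 and 683 CPM in mature cells, with no overlap. Lss had medians of 10.5, 126 and 20.7 CPM in the same order, and Cyp51 had 43.4, 391 and 196 CPM. Each peaked in the late cells and then lay lower in mature cells. Late cells were also deeper, with a median of 7775.5 UMIs per cell against 2345 in early and 4563 in mature cells. Among cells of 3000 to 9000 UMIs only, the sum was 3489, 5778 and 8734 CPM in 58 late cells (6 libraries), 849, 1304 and 1863 CPM in 124 early cells (6 libraries) and 1923, 2361 and 2830 CPM in 1210 mature cells. Late cells were still deeper within this window, with a median of 6029.5 UMIs against 4621 in early and 4936.5 in mature cells. In it the late level was 2.12 to 7.58 times the early level in the 5 libraries with both, and 1.48 to 4.32 times the mature level in 6. No least number of cells per library was set for this window, so single ratios can rest on very few cells. PFC DTA replicate 2 held only 4 late cells at any depth.

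Efflux and uptake genes took the opposite course to the enzymes. Of the 7 transport genes, 5 (Abca1, Abcg1, Apoe, Lrp1 and Npc1) were lower in late than in early cells in all 7 libraries, beside 14.3% of all genes. Apoe was measured at 3055, 4374 and 5178 CPM in precursors, 662, 1059 and 1800 CPM in early cells, 23.3, 75.4 and 147 CPM in late cells and 174, 310 and 968 CPM in mature cells. Each step down to the late cells was without overlap. Lrp1 went from 345, 407 and 538 CPM in precursors through 67.1, 111 and 160 CPM in early cells to 0, 4.67 and 18.6 CPM in late cells. Npc2 and Stard4 were the exceptions among transport genes. Npc2 was measured at 194, 251 and 295 CPM in early, 997, 1051 and 1282 CPM in late and 516, 602 and 743 CPM in mature cells, again with no overlap. Insig1 was higher in late than in early cells in all 7 libraries, with medians of 248 and 71.6 CPM, and Insig2 was lower, with medians of 23.3 and 58.6 CPM.

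**Figure D4:**
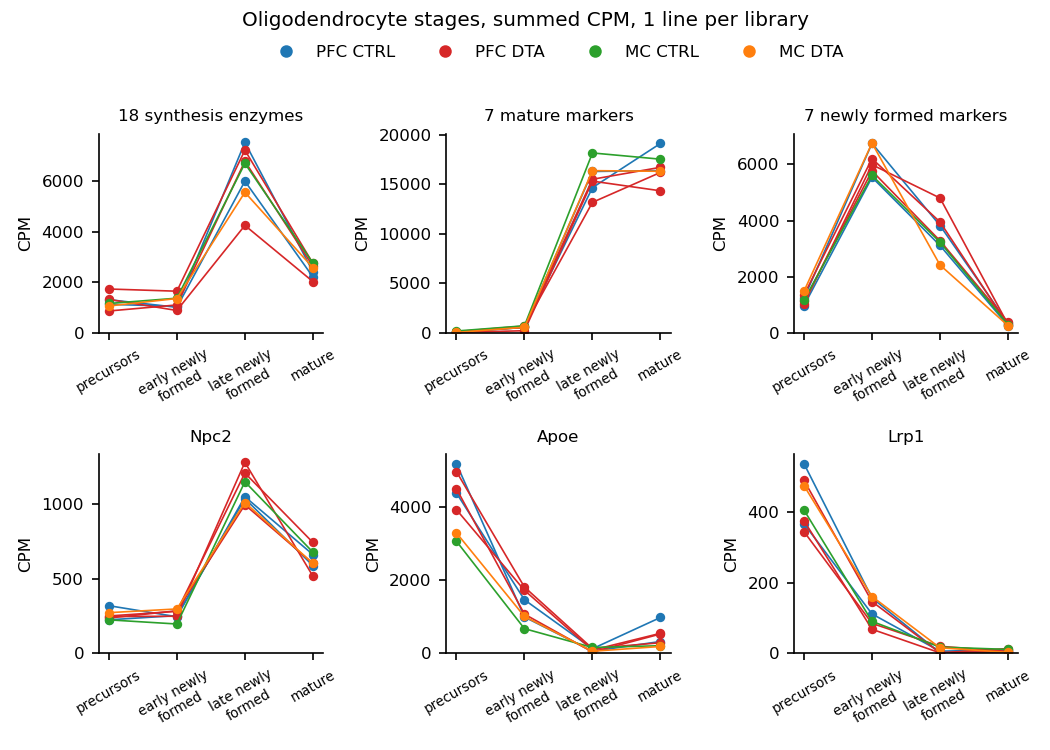
Levels (CPM) along 4 oligodendrocyte stages, 1 line per library coloured by area and genotype: 18 synthesis enzymes summed, 7 mature markers summed, 7 newly formed markers summed, Npc2, Apoe and Lrp1. The synthesis sum and Npc2 peak in late newly formed cells in all 7 libraries, while Apoe and Lrp1 fall from precursors to late cells.

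With all 5 PFC libraries and no replicate block, no sterol gene was called between DTA and CTRL. In 6 classes 178 tests of DTA against CTRL gave 0 genes past the threshold (percent called 0 for all genes in each class, by edgeR). DESeq2 also called 0 of the sterol genes, and 0 of the 178 had an unadjusted p under 0.05 by edgeR. Few of all genes had one either: 257 of 13941 in excitatory and 442 of 10944 in inhibitory neurons, and 267 of 10355 in astrocytes. The counts were 279 of 7264 in precursors, 122 of 4841 in newly formed and 204 of 7196 in mature oligodendrocytes. The median log2 fold change over the sterol genes was 0.07 in excitatory and 0.13 in inhibitory neurons, -0.02 in astrocytes, 0.15 in precursors, -0.23 in newly formed and 0.06 in mature oligodendrocytes. Groups did not overlap for 2 of 32 genes in excitatory neurons (14.2% of all genes), 2 of 32 in inhibitory neurons (18.5%), 5 of 31 in astrocytes (17.9%), 2 of 26 in precursors (16.9%), 2 of 28 in newly formed (16.7%) and 2 of 29 in mature oligodendrocytes (16.4%). Without PFC CTRL replicate 1 only 1 CTRL library is left, and Apoe in inhibitory neurons then had a log2 fold change of -1.16. Apoe there lay at 30.5 CPM in PFC CTRL replicate 1 and at 145 CPM in the CTRL library left in. In DTA it lay at 86.3, 54.3 and 55.9 CPM. With the replicate number as a block 3 enzymes were called, all lower in newly formed oligodendrocytes of DTA: Acat2 (-1.12, adjusted p = 0.043), Msmo1 (-1.17, adjusted p = 0.031) and Mvd (-1.20, adjusted p = 0.042, edgeR), although the labels do not say that equal numbers mark paired libraries. How much change these data could hide differed by class. The 95% interval lay within a 2-fold change for 29 of 32 genes in excitatory and 24 of 32 in inhibitory neurons, 24 of 31 in astrocytes, 24 of 29 in mature oligodendrocytes, 13 of 26 in precursors and 4 of 28 in newly formed oligodendrocytes.

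The smallest p-values were for Ebp, Insig1 and Srebf1. Ebp in newly formed oligodendrocytes was measured at 55.7 and 76.8 CPM in PFC CTRL and at 26.9, 30.9 and 49.3 CPM in PFC DTA. The DTA libraries were lower without overlap, and the log2 fold change was -0.81 ± 0.38 (SE, unadjusted p = 0.054 and adjusted p = 0.999, edgeR). Insig1 in precursors was at 91.4 and 59 CPM in CTRL and at 48, 101 and 180 CPM in DTA. These groups overlapped, with a log2 fold change of 0.78 ± 0.39 (unadjusted p = 0.060, edgeR). Srebf1 in astrocytes was at 67.4 and 109 CPM in CTRL and at 99.2, 129 and 122 CPM in DTA, which overlapped (0.48 ± 0.24 on the log2 scale, unadjusted p = 0.068, edgeR). Astrocyte sub-clusters 5 and 6 contributed unevenly to these libraries, as given above, and their part in these values was not tested.

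Motor cortex had 1 library per genotype, so these ratios compare 2 libraries and have no replicate check. Their 95% Poisson intervals cover counting error only. MC DTA was a deep and MC CTRL a shallow library, at medians of 15835 and 5416 UMIs per excitatory neuron. Srebf1 in astrocytes was measured at 146 CPM in MC DTA and 76.3 CPM in MC CTRL, a ratio of 1.96 (1.49 to 2.60) after TMM scaling. The DTA library was higher here, as was the mean of the overlapping PFC groups. Insig1 in precursors was at 37.7 and 96.9 CPM (ratio 0.39, 0.18 to 0.80), opposite in sign to PFC, and Ebp in newly formed oligodendrocytes gave 0.83 (0.42 to 1.56). Cyp46a1 in excitatory neurons was at 235 and 200 CPM (ratio 1.20, 1.14 to 1.26), where PFC gave a log2 fold change of 0.22 ± 0.19 (adjusted p = 1, edgeR). Cyp46a1 was picked from outside the genes with the smallest PFC p-values. In MC excitatory neurons 8 of the 32 genes had an interval above 1, Cyp46a1 among them, and 2 had an interval below 1. The test of the difference between the areas' genotype effects called 0 of 184 (percent called 0 for all genes, edgeR), and DESeq2 also called 0. An unadjusted p under 0.05 (edgeR) occurred for 2, both among the 28 genes tested in precursors, beside 190 of 7908 of all genes there. All-gene counts elsewhere were 131 of 14696 in excitatory and 127 of 12129 in inhibitory neurons, and 128 of 10729 in astrocytes. They were 100 of 5910 in newly formed and 129 of 9720 in mature oligodendrocytes. Each MC arm of this test was 1 library, assumed to vary like the PFC libraries, and the 95% interval lay within a 2-fold change for 0 of 28 genes in precursors, so the test could miss large differences. Insig1 in precursors had -2.11 ± 0.73 on the log2 scale (unadjusted p = 0.0065 and adjusted p = 1, edgeR), Nr1h2 in precursors 1.37 ± 0.67 (unadjusted p = 0.046) and Lrp1 in mature oligodendrocytes -2.69 ± 1.43 (unadjusted p = 0.074).

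**Figure D5:**
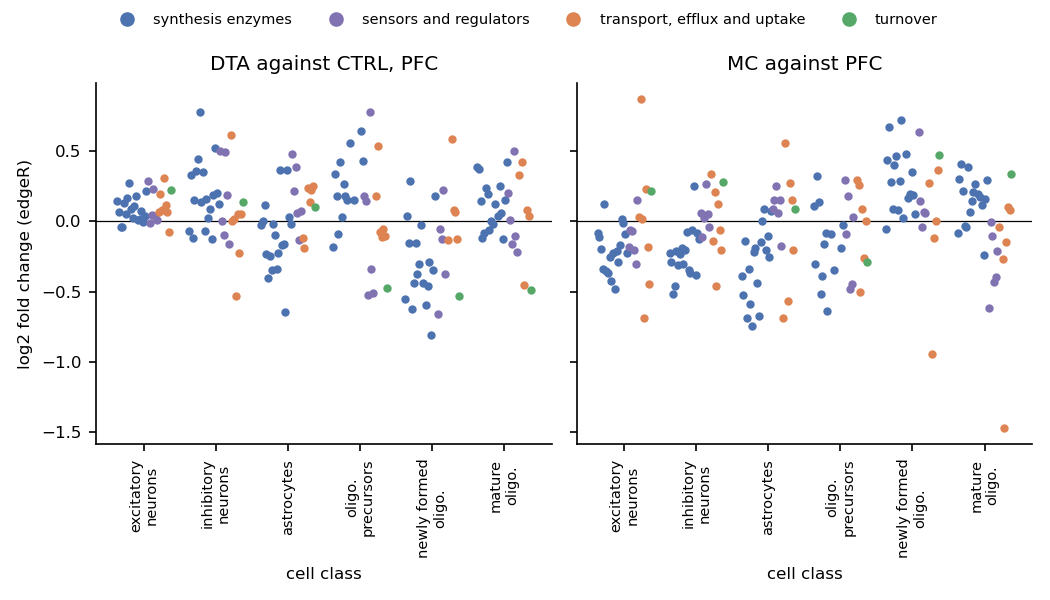
Log2 fold changes (edgeR) of the sterol genes in 6 cell classes, coloured by role, for DTA against CTRL in PFC (left) and MC against PFC (right). No point passed the adjusted threshold in either panel, and 16 of 18 synthesis enzymes lie under 0 for MC against PFC in excitatory neurons.

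Between areas no sterol gene was called in 179 tests of the 2 MC against the 5 PFC libraries. Over all genes the test called 5.38% in excitatory neurons (3.01% higher, 2.37% lower), 2.17% in inhibitory neurons (1.23% higher, 0.932% lower), 0.217% in astrocytes, 0.011% in mature oligodendrocytes and 0 in the other 2 classes. At an unadjusted p under 0.05 (edgeR), 7 of 32 sterol genes passed in excitatory neurons, beside 2509 of 14192 of all genes, and 5 of 31 in astrocytes, beside 802 of 10115. In the other classes 1 of 32 passed in inhibitory neurons (1774 of 11584 of all genes), 2 of 26 in precursors (265 of 6914), 1 of 28 in newly formed (248 of 5104) and 4 of 30 in mature oligodendrocytes (298 of 9104). DESeq2 called 0 of the sterol genes at the adjusted threshold. Without PFC CTRL replicate 1 the test called 1, Apoe in inhibitory neurons (log2 fold change -0.83). Most enzymes had negative fold changes for MC in 4 classes and positive ones in the other 2. In excitatory neurons 16 of 18 had a negative log2 fold change, with a median of -0.22 beside -0.01 over all genes, and in inhibitory neurons 17 of 18, with a median of -0.23. In astrocytes 15 of 18 were negative (median -0.24), as were 10 of 13 in precursors (median -0.16). In newly formed oligodendrocytes 16 of 17 were positive, with a median of 0.28, and in mature oligodendrocytes 13 of 17, with a median of 0.17. Markers of mature cells moved with this in the newly formed class, at 11243 and 9098 CPM in MC against 2511 to 8181 CPM in PFC. The late cells, whose number per library is given above, were 34 and 8 in MC and 4 in PFC DTA replicate 2. The part of this stage mix in the enzyme values was not tested. Excitatory sub-clusters also differed in share between areas. Cluster 9, with a median synthesis sum of 907 CPM, made up 9.95% to 18.9% of excitatory neurons in PFC and 1.22% and 3.65% in MC. Cluster 2, at 854 CPM, was more common in MC, with 21.4% and 30.8% against 9.86% to 22.7% in PFC. The part of these shares in the neuronal enzyme values, Sqle included, was not tested.

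Sqle in excitatory neurons was measured at 62.2, 62.9, 60.3, 61 and 71.8 CPM in PFC, CTRL before DTA, and at 45.7 and 48.6 CPM in MC CTRL and MC DTA. The areas did not overlap, and the log2 fold change of MC over PFC was -0.42 ± 0.12 (adjusted p = 0.076, edgeR). Pmvk in astrocytes was at 283, 225, 265, 164 and 195 CPM in PFC and at 139 and 140 CPM in MC, without overlap (-0.69 ± 0.23 on the log2 scale, adjusted p = 0.44, edgeR). In inhibitory neurons Pmvk gave -0.46 ± 0.17 (adjusted p = 0.20, edgeR). Groups did not overlap for 8 of 32 genes in excitatory neurons (22.6% of all genes), 10 of 31 in astrocytes (13.8%), 2 of 32 in inhibitory neurons (18.8%), 1 of 26 in precursors (8.89%), 1 of 28 in newly formed (10.9%) and 3 of 30 in mature oligodendrocytes (6.96%).

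Apoe was lower on average in MC in astrocytes and the oligodendrocyte line, a pattern chosen after its values were seen. In endothelial cells the MC libraries (1027 and 678 CPM) lay inside the PFC range (629 to 1336 CPM), and in microglia they were at 678 and 546 CPM against 556 to 1850 CPM. Astrocytes had 18571, 16243, 23478, 15390 and 19670 CPM in PFC and 11096 and 13706 CPM in MC. Precursors had 5178, 4374, 4961, 3919 and 4490 CPM in PFC and 3055 and 3283 CPM in MC. In both astrocytes and precursors the MC libraries were under all PFC libraries. The log2 fold changes were -0.57 ± 0.24 in astrocytes (adjusted p = 0.60, edgeR), -0.50 ± 0.23 in precursors, -0.94 ± 0.38 in newly formed and -1.47 ± 0.48 in mature oligodendrocytes. Abca1 in astrocytes was higher in both MC libraries (91.2 and 92.1 CPM) than in any PFC library (38.1 to 75.8 CPM), at 0.56 ± 0.24 on the log2 scale (adjusted p = 0.60, edgeR). With a term for deep and shallow libraries the area test also called no sterol gene. Dissection and library depth were not otherwise tested as causes, and MC held 1 deep and 1 shallow library. Astrocyte cluster 29 (median Apoe 34195 CPM) made up 2.60% to 7.48% of astrocytes in PFC, and 0 and 0.761% in MC. Cluster 22 (19942 CPM) made up 4.16% to 19.5% in PFC, and 10.3% and 25.6% in MC. Newly formed cells mixed early and late cells, with Apoe medians of 1059 and 75.4 CPM. The part of these mixes in the Apoe values was not tested.

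Related genes followed only in part. Of 12 fatty acid genes that SREBP is known to drive, 12 were higher in astrocytes than in excitatory neurons and 0 lower, 9 were higher and 0 lower in mature oligodendrocytes, and 11 were lower and 1 higher in precursors than in astrocytes. Of all genes, 37.7% were higher and 38.3% lower in the first comparison. The shares were 36.5% and 42.5% in the second, and 21.9% and 25.8% in the third. Elovl5, a fatty acid elongase, was higher in astrocytes by 5.28 ± 0.14 on the log2 scale, and Acss2, which makes acetyl-CoA, was lower in precursors than in astrocytes (-3.44 ± 0.21). Of 22 other sterol genes tested, 9 were higher and 10 lower in astrocytes than in excitatory neurons, near the shares of all genes. Lcat, which esterifies the cholesterol of lipoproteins, was higher by 8.66 ± 0.22, and Nceh1, a cholesterol ester hydrolase, was lower (-2.58 ± 0.14). In mature oligodendrocytes Abca2, a lysosomal lipid transporter, was higher than in excitatory neurons by 2.83 ± 0.09, and Lrp8, the Apoe and reelin receptor of neurons, was lower (-4.54 ± 0.26). From newly formed to mature cells Apod, a lipocalin of oligodendrocytes, was higher by 6.64 ± 0.36. Among these related genes 1 differed between areas in excitatory neurons: Pgrmc1, a haem-binding membrane protein, was lower in MC (-0.84 ± 0.15, adjusted p = 0.0076, edgeR). That is 1 of 21 other sterol genes tested there, beside 5.38% of all genes.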

How the data were processed

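The 32 genes and the lists of related genes were chosen with earlier results of these data known. The deposited tables held raw UMI counts per gene and cell, 1 table per library. The submitters' processing notes name Cell Ranger 3.0.2, Seurat and the mm10 build, with no further steps given in the sources used here. No deposited cell had under 501 genes, and a filter at 200 genes and 20% mitochondrial UMIs removed 0 cells. Doublets were called per library. The caller found 0 in PFC DTA replicate 3, where the 295 top-scoring cells were removed.

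Cells were clustered with scanpy 1.11.5 (2000 variable genes without the sterol and related genes, 30 components, 20 neighbours, Leiden resolution 1). Clusters were named from marker lists by a scoring rule set after the clusters were seen, and cells without a name were left out. Counts were summed per library and class. The test was the robust quasi-likelihood fit of edgeR 4.0.16 (TMM, at least 10 counts by filterByExpr, Benjamini-Hochberg within a comparison, threshold 0.05), with library as a block in class contrasts and genotype as a term for area. Named genes were the called genes with the largest change per role, or the smallest p-values where none was called, plus Hmgcs1, Sqle, Insig1, Srebf1, Srebf2, Apoe, Abca1, Abcg1 and Cyp46a1. Class sums ran from 124978 to 21790310 UMIs. On simulated counts edgeR found 79 of 100 genes changed 2-fold in the excitatory PFC genotype comparison and 22 of 100 in newly formed oligodendrocytes. Acat2 and Nr1h2 have near-identical copies in the genome that could share reads.

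The alternatives tried were DESeq2 1.42.0, other size factors, no count filter, doublets kept, other cluster resolutions, sterol genes kept for clustering, a term for deep and shallow libraries, a replicate block and leaving out each library.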

Additional observations from a re-analysis of the deposited data

How the results depend on the processing

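Most results kept their direction and their side of the threshold: of the alternative values for single genes in the class contrasts 1581 of 1683 did, as did, for only the few genes named in the text, 43 of 43 for genotype, 128 of 128 for area and 24 of 24 for the area by genotype term. Genes outside those few that crossed the threshold are given below. The stage contrasts changed, since cells move from the newly formed to the mature class, 116 when clustering is finer and 115 when the sterol genes are kept for it. With sterol genes kept, 28 genes were called between mature and newly formed cells, and 5 between newly formed cells and precursors. At resolution 2 the counts were 29 and 6. The share of all genes called under these clusterings is not given here. Log2 fold changes that turned sign, with sterol genes kept and at resolution 2, were 0.27 and 0.29 for Tm7sf2 in mature oligodendrocytes against excitatory neurons. For mature against newly formed cells they were 0.55 and 0.53 for Acat2, 0.67 and 0.61 for Cyp46a1, 2.61 and 2.46 for Hmgcs1, 0.68 and 0.69 for Hsd17b7, 1.34 and 1.42 for Lss, 0.92 and 0.95 for Sqle and 1.05 and 1.25 for Tm7sf2, and with library totals -0.00622 for Dhcr7. For newly formed cells against precursors they were -0.20 and -0.14 for Cyp46a1, -0.42 and -0.27 for Hmgcs1 and -0.062 and -0.074 for Stard4.

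Leaving out 1 library at a time gave 30 to 31 called genes for astrocytes and 30 to 31 for mature oligodendrocytes against excitatory neurons, 17 to 20 for inhibitory neurons, 25 to 26 for precursors against astrocytes, 26 to 28 for newly formed cells against precursors, 17 to 19 for mature against newly formed cells, and 0 to 1 each for genotype and area. The library behind the single calls, of Apoe in inhibitory neurons, was PFC CTRL replicate 1. For genotype its removal leaves 1 CTRL library, with Apoe at 145 CPM, so that fit has no CTRL replicate. The cause was not tested. With the replicate number as a block the genotype test called 3 genes, all lower in newly formed oligodendrocytes of DTA: Acat2 (-1.12), Msmo1 (-1.17) and Mvd (-1.20). By their labels, libraries of the same number shared only a number. Their deviations correlated at -0.06 to 0.24 over the 6 classes and the 2 numbered pairs. Newly formed oligodendrocytes, the class of these calls, had the highest values for each number, at 0.24 and 0.17. The numbers were not taken to pair libraries, because the labels do not say that they do. Newly formed oligodendrocytes, with 33 to 174 cells per library, limit what can be said of genotype.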

Other observations

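Within the named classes the clusters, each called here by its leading gene, differed in turnover and synthesis. These levels are a description without a test, over the libraries that held at least 20 cells of a cluster. Cyp46a1 had a median over libraries of 267 CPM in the Npy-led inhibitory cluster and 75.7 CPM in the Vip-led one, with the Pvalb-led and Sst-led clusters between them at 134 and 151 CPM. The Npy-led libraries (160 to 339 CPM) lay above all Vip-led libraries (33.1 to 86.1 CPM). Between the Npy-led and Vip-led clusters summed synthesis ran the other way, with medians of 491 and 802 CPM, again without overlap. The Pvalb-led and Sst-led clusters did not follow this order. The Pvalb-led cluster had the lower median of both Cyp46a1 and summed synthesis (494 CPM, against 701 CPM in the Sst-led cluster). In excitatory neurons Cyp46a1 was lowest in the Tshz2-led cluster (median 70.5 CPM) and the Foxp2-led cluster (98.1 CPM), and reached 241 to 273 CPM in 4 others. The same Tshz2-led and Foxp2-led clusters had the highest synthesis sums, with medians of 990 and 955 CPM, while the Myh7-led cluster had 540 CPM. The Npas4-led cluster was high in both, with medians of 252 CPM for Cyp46a1 and 907 CPM for summed synthesis.

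Astrocyte subclusters also differed in Apoe. The cluster led by Myoc and Gfap held at least 20 cells in 3 libraries, with 24262 to 41760 CPM and a median of 34195 CPM. Those values lay above every library of the Slc7a10-led cluster (9343 to 22331 CPM, 5 libraries) and overlapped the highest libraries of the Ppp1r3g-led cluster (12587 to 25435 CPM) and of the Aldoc-led cluster (13884 to 28954 CPM). Summed synthesis in the Myoc-led cluster was 2802 to 3349 CPM, which overlapped the Slc7a10-led cluster (2829 to 3863 CPM).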
